A study of Mikania micrantha with 15 samples.

Results

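Genes read mainly in the leaf were described in Mikania micrantha, a climbing vine of the daisy family. A gene ID was taken as leaf-dominant when its mean over the 3 leaf libraries was at least 5 CPM (counts, with each library total scaled to 1000000) and at least 8 times its mean in each of flower, root, shoot apex and stem. This rule was met by 102 of 41487 IDs, 0.246%. The RNA-seq series holds 15 libraries, 3 each from leaf, flower, root, shoot apex (the tip where new leaves arise) and stem. All 5 organs came from wild-type vines with no treatment that differs between them. Per the labels' protocols, cuttings were rooted in water until the roots reached 4 to 5 cm and were then kept for 60 days in Hoagland solution, a mineral nutrient medium, with light for 16 h and dark for 8 h a day at 24 °C. The labels do not state the age or position of the leaves, nor whether replicates came from separate plants, so p-values cover only differences among these libraries, and their spread may be technical.

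The leaf blade is the main site of photosynthesis and of gas exchange through stomata. Its epidermis forms a wax cuticle and, in many species of the daisy family, glandular hairs that store terpenoids such as sesquiterpene lactones. The shoot apex bears leaf primordia, the stem is partly green, and the flower heads of this family are enclosed by leaf-like bracts, while root has no such tissue. The count table identifies genes by locus tag and does not pair the tags with names or products. The members are therefore given by ID and level, without functions, and the organ labels could not be checked against marker genes. In whole organs, fewer cells of a type and less RNA per cell cannot be told apart.

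Library totals ranged from 3777165 counts in root replicate 2 to 12817396 in shoot apex replicate 2. In each other organ a count of 0 in all 3 libraries allows up to 3 counts, which is 0.0945 CPM in flower, 0.0839 in shoot apex, 0.137 in stem and 0.156 in root. These limits and all intervals below cover counting error only. Leaf replicates 1 and 2, stem replicate 3 and shoot apex replicate 1 stood apart in the levels of the members, as given below. The rule found 88 IDs without leaf replicate 1, 82 of them members, and 115 without leaf replicate 2, 93 of them members. It found 108 without stem replicate 3, 100 of them members, and 107 without shoot apex replicate 1, 101 of them members.

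The members together took 0.569 ± 0.104% of all counts in leaf (SD, n = 3 for each organ), 0.0338 ± 0.00257% in flower, 0.0215 ± 0.00733% in shoot apex, 0.0332 ± 0.00419% in stem and 0.00588 ± 0.00106% in root. These levels follow from the rule and are a description. The median of the members' mean levels was 21.8 CPM in leaf, 1.23 in flower, 0.908 in shoot apex, 0.664 in stem and 0.128 in root. In leaf, 10 members had a mean of at least 100 CPM and 27 of at least 50 CPM, and the lowest was at 5.15 CPM. CPM is not scaled by transcript length, so the order of members by CPM is an order of read numbers. Applied to the other organs, the same rule found 710 IDs in flower, 112 in shoot apex, 27 in stem and 639 in root.

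**Figure D1:**
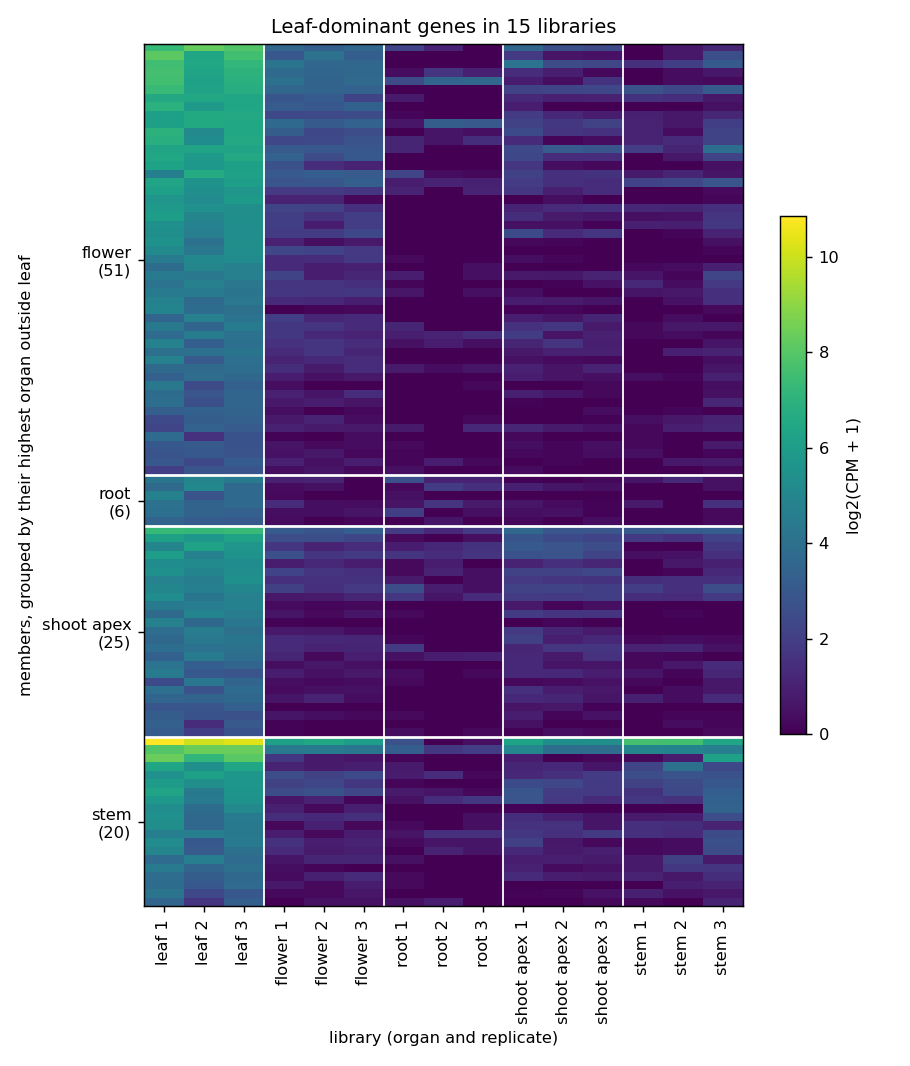
Level of the 102 leaf-dominant genes (rows) in the 15 libraries (columns), as log2(CPM + 1), with rows grouped by the organ of the highest mean outside leaf and sorted by leaf mean within each group. Flower was the highest other organ of 51 members, shoot apex of 25, stem of 20 and root of 6, and the root columns are the darkest.

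A few members carried much of the reads. E3N88_19447, the member with the highest leaf mean, took 24.8% of the summed leaf CPM of all members, and the 10 members with the highest leaf means took 53.3%. It was at 1842, 1073 and 1313 CPM in leaf replicates 1, 2 and 3. Outside leaf it was at 70.7, 91.1 and 65.7 CPM in flower, 76.9, 41.7 and 41.5 in shoot apex, 198, 191 and 84.1 in stem and 5.39, 0 and 0.366 in root. It was thus readily detected in all shoot organs and lay near the limit of the rule, with a leaf mean 8.94 times the stem mean. E3N88_19972 came next, at 244, 337 and 327 CPM in leaf. It was at 19.9, 20.9 and 18.1 CPM in flower, 31.5, 14.3 and 13.8 in shoot apex, 29.9, 28.9 and 24.2 in stem and 8.69, 2.38 and 2.93 in root, a leaf mean 10.9 times the stem mean. These members differed in their replicate pattern, since leaf replicate 1 was the highest leaf library of the first and the lowest of the second.

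The members with the largest ratios were at lower levels. E3N88_16678 was at 25.3, 11.4 and 18.3 CPM in leaf replicates 1, 2 and 3, with 522 leaf reads in all, and had 1 read in flower, 2 in shoot apex and 0 in root and stem. Its summed reads, scaled by the summed library totals, were 311 times as high in leaf as in shoot apex (95% exact interval 85.6 to 2573). E3N88_14614 was at 28.5, 13.2 and 15.2 CPM in leaf, with 539 leaf reads, 3 reads each in flower and shoot apex, 2 in stem and 0 in root. By summed reads, scaled in the same way, it was 190 times as high in leaf as in flower (95% exact interval 64.7 to 924). Both were chosen for their ratio, so these values are a description.

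Over the 102 members the ratio of the leaf mean to the highest other mean ran from 8.04 to 352, with a median of 11.3. It was under 10 in 29 members, from 10 to under 16 in 44, and at least 16 in 29. A further 216 IDs of at least 5 CPM in leaf lay at 4 to under 8 times. The member closest to the limit was E3N88_20742, with a leaf mean of 15.03 CPM and a shoot apex mean of 1.87 CPM, a ratio of 8.04. The ID closest to it from outside was E3N88_24252, with a leaf mean of 174 CPM and a stem mean of 21.8 CPM, a ratio of 7.99. In edgeR quasi-likelihood tests, with a call set at 2-fold or more and an adjusted p under 0.05, 102 of 102 members were called higher in leaf than in each of the other 4 organs. Of all 27055 genes tested, 15.7% were called higher in leaf than in flower, 23.3% than in root, 17.2% than in shoot apex and 19.9% than in stem. The rule used these contrasts, so nothing is read from the members' counts.

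**Figure D2:**
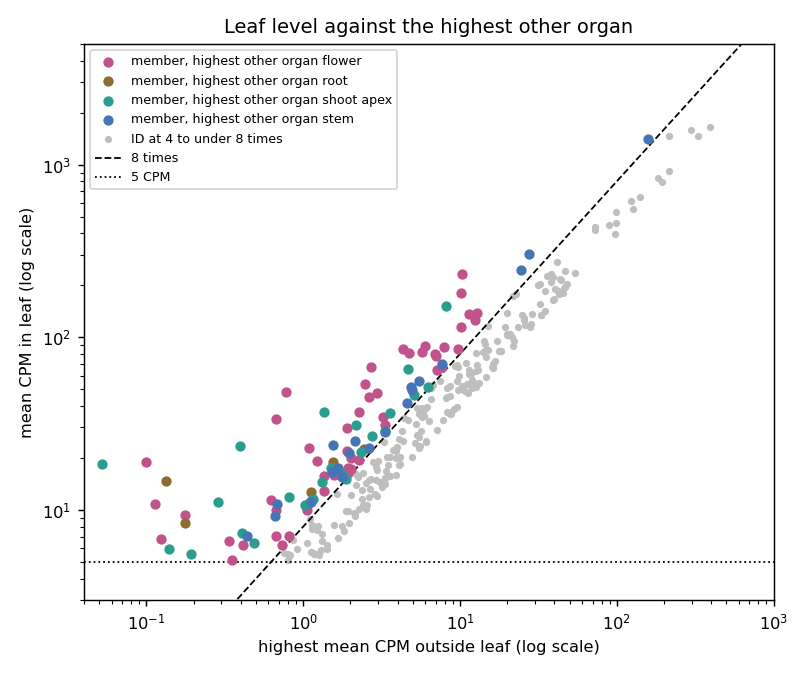
Mean CPM in leaf (y axis, log scale) against the highest mean CPM among flower, root, shoot apex and stem (x axis, log scale). Coloured points are the 102 members by their highest other organ, grey points are the 216 IDs at 4 to under 8 times, and most members lie close above the dashed line of 8 times.

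The single libraries did not overlap for any member, as the lowest leaf library exceeded the highest of the 12 other libraries in 102 of 102. The margin was at least 2 times in 97 members, at least 4 times in 82 and at least 8 times in 27. A limit of 8 times between means favours such gaps, so these counts follow largely from the rule and are a description. The share over all IDs was not counted. The 5 members with a margin under 2 were E3N88_02237, E3N88_05954, E3N88_08199, E3N88_08201 and E3N88_26191, named here after their values were seen. In all 5 the lowest leaf library was replicate 2 and the highest other library was stem replicate 3.

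Which organ came next after leaf was not set by the rule, which caps the other organs and leaves their order open. Flower, root, shoot apex and stem were therefore compared in a fit to their 12 libraries that left leaf out of the filter and of the spread. In that fit 67 of the 102 members passed the filter on low counts. The highest mean outside leaf had a median of 2.69 CPM in these 67 and 0.618 CPM in the 35 that did not pass. The overall F test among the 4 organs called 55 of the 67 members, 82.1%, with an adjusted p under 0.05, against 87.9% of all 26717 genes tested, so the members did not stand out by how often they differed. A member that passes the filter only through its highest organ has to differ, which touches the counts that follow. A fit to all 15 libraries admits all 102 members, and its F test called 77 of them, 75.5%, against 85.3% of all 27055 genes tested.

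The directions of the differences set root apart. Flower exceeded root in 40 of the 67 members, 59.7%, against 27.5% of all genes tested, and root exceeded flower in 2, or 2.99%, against 18.2% of all genes. Stem exceeded root in 28 members, 41.8%, against 15.9%, and root exceeded stem in 3, or 4.48%, against 13.5%. Shoot apex exceeded root in 28 members, 41.8%, against 31%, and root exceeded shoot apex in 2, or 2.99%, against 23.4%. These calls came from the same edgeR test with the same limits on fold and adjusted p. In the fit to all 15 libraries, flower exceeded root in 50 of the 102 members, 49.0%, against 27% of all genes, and root exceeded flower in 4, or 3.92%, against 17.9%. Stem exceeded root in 34 there, 33.3%, against 15.4%, and root exceeded stem in 6, or 5.88%, against 13.1%. Shoot apex exceeded root in 37 there, 36.3%, against 30.6%, and root exceeded shoot apex in 3, or 2.94%, against 23.1%. Root was thus seldom the higher organ in either fit. In the 12-library fit, the median log2 fold change of flower over root was 2.03 in the 67 members and 0.23 in all genes tested. For root over stem it was -2.00 and 0.00, and for root over shoot apex -1.55 and -0.21. With members that had no read in an organ set to their bound, the members' medians were 1.98, -1.63 and -1.33. Root held no read at all of 34 of the 102 members, against 1 for flower, 4 for shoot apex and 6 for stem, and root also had the shallowest library. Single libraries held a read of 93 to 99 members in flower, 84 to 90 in shoot apex, 58 to 91 in stem and 32 to 61 in root. Of all 41487 IDs they held a read of 30675 to 31046 in flower and 28650 to 29206 in shoot apex. In stem these were 25554 to 27623 and in root 24720 to 28151.

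**Figure D3:**
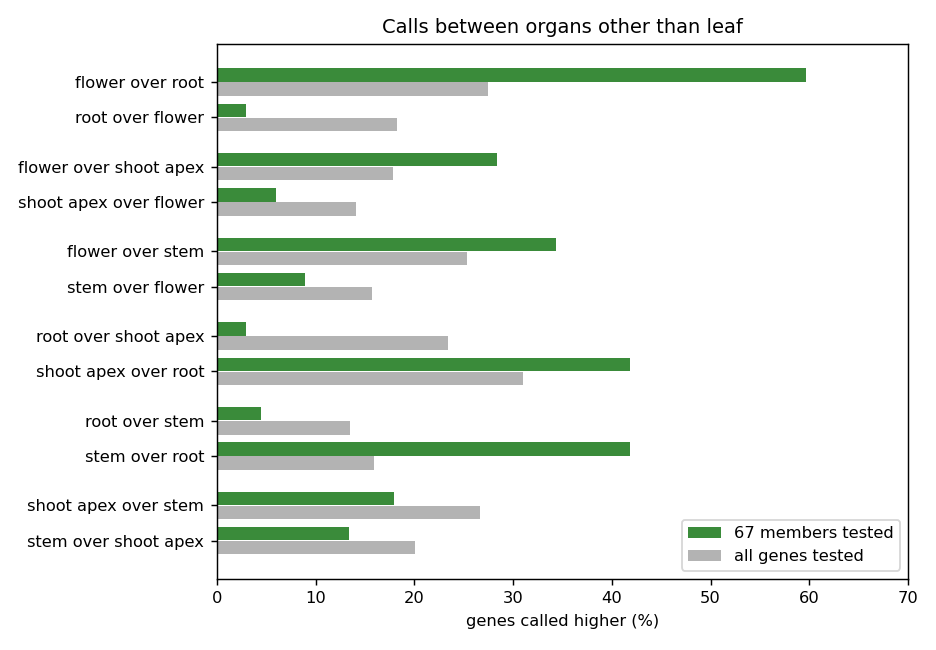
Share of genes called higher in the first-named organ than in the second (edgeR, 2-fold or more, adjusted p under 0.05) among the 67 members tested (green) and all 26717 genes tested (grey), for the 6 pairs of organs other than leaf. Flower over root, at 59.7% of members, and stem over root, at 41.8%, lie furthest above the share of all genes.

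Folds were ranked among called members whose higher organ averaged 5 CPM or more. By that order E3N88_37061 had the largest fold of flower over root and of shoot apex over root. It was at 181, 90.7 and 143 CPM in leaf, at 17.0, 10.8 and 10.8 in flower, at 16.5, 4.76 and 3.99 in shoot apex and at 1.84, 3.01 and 7.51 in stem. No root library held a read of it, which puts flower above it by 82.4-fold or more (edgeR adjusted p = 0.000126) and shoot apex by 54-fold or more (edgeR adjusted p = 0.000214). By the same order E3N88_20693 had the largest fold of stem over root. It was at 5.51, 4.06 and 7.41 CPM in stem while root held no read of it, a fold of 36.3 or more (edgeR adjusted p = 2.95e-06). It was at 161, 74.9 and 106 CPM in leaf and at 10.9, 9.93 and 9.70 in flower.

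E3N88_11019 went the other way. It was at 188, 73.4 and 118 CPM in leaf and at 15.04, 10.03 and 12.4 in flower, and root held 4.59, 10.6 and 10.8 CPM. Shoot apex held 0.756, 0.312 and 2.00 CPM and stem 0, 0.301 and 0.206. Its level was therefore high in root next to shoot apex and stem, with which the root libraries did not overlap. The log2 fold change of root over shoot apex was 3.53 ± 0.58 (SE, edgeR adjusted p = 0.00014) and that of root over stem 5.59 ± 0.78 (SE, edgeR adjusted p = 8.42e-05). Without shoot apex replicate 3, its highest there, the first of these was 4.44. Among members of at least 5 CPM in flower it also had the largest fold of flower over stem, by 5.73 ± 0.77 on the log2 scale (SE, edgeR adjusted p = 5.62e-05). Root was the highest organ outside leaf for 6 members, with E3N88_28190 the highest of them there at 2.45 CPM, an ID named after its values were seen.

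Among the shoot organs, flower was called the higher organ more often than the lower in both of its pairs. Flower exceeded shoot apex in 19 of the 67 members, 28.4%, against 17.8% of all genes tested, and shoot apex exceeded flower in 4, or 5.97%, against 14.1%. Flower exceeded stem in 23 members, 34.3%, against 25.3%, and stem exceeded flower in 6, or 8.96%, against 15.7%. The median log2 fold change was 0.67 for flower over shoot apex and 0.62 for flower over stem, with -0.03 and 0.16 over all genes tested. Between shoot apex and stem, 12 members, 17.9%, were higher in shoot apex and 9, or 13.4%, in stem, against 26.6% and 20.1% of all genes. In the fit to all 15 libraries, flower exceeded shoot apex in 27 of the 102 members, 26.5%, against 17.5% of all genes, and shoot apex exceeded flower in 6, or 5.88%, against 13.6%. Flower exceeded stem there in 27 members, 26.5%, which is near the 24.9% of all genes, and stem exceeded flower in 8, or 7.84%, against 15.4%. Shoot apex exceeded stem there in 15 members, 14.7%, against 26.3%, and stem exceeded shoot apex in 17, or 16.7%, against 19.8%.

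A single runner-up organ was seldom resolved. Of the 67 members tested, calls above all 3 remaining organs were made in 8 for flower, 1 for shoot apex, 2 for stem and 0 for root. Of all genes tested, such calls held 7.68% for flower, 8.13% for shoot apex, 3.70% for stem and 8.12% for root. For root the count was also 0 at an unadjusted edgeR p under 0.05 and with DESeq2.

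E3N88_06098 had the highest flower mean of the 8. It was at 200.3, 79.2 and 128 CPM in leaf and at 12.2, 10.5 and 11.3 in flower. It was at 1.60, 0.858 and 0.181 CPM in shoot apex, 0, 0.301 and 0.617 in stem and 0.300, 2.12 and 0.914 in root. Every flower library lay above every library of root, shoot apex and stem. The log2 fold change of flower was 3.17 ± 0.71 over root, 3.72 ± 0.66 over shoot apex and 4.70 ± 0.78 over stem (SE, edgeR adjusted p of 0.00189, 0.000575 and 0.000279). Among members of at least 5 CPM in flower, E3N88_30814 had the largest fold of flower over shoot apex, at 7.82, 6.79 and 9.22 CPM in flower and 0.840, 0 and 0 in shoot apex (log2 fold change 4.82 ± 0.94, SE, edgeR adjusted p = 0.0017). With DESeq2 it no longer passed, at a log2 fold change of 4.96 and an adjusted p of 0.0759, within a range of 0.000287 to 0.0759 over the alternatives. Its 10 shoot apex reads were all in replicate 1, without which the fitted log2 fold change was 9.02, a value that depends on the prior count.

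E3N88_09412 was the member called highest in shoot apex, at a low level. It was at 12.6, 29.1 and 23.0 CPM in leaf and at 2.77, 2.11 and 2.09 in shoot apex. Flower held 0.510, 0.209 and 0.576 CPM, root 0.200, 0 and 0 and stem 0, 0.150 and 0. The log2 fold change of flower over shoot apex was -2.31 ± 0.56 (SE, edgeR adjusted p = 0.00466). Among members of at least 5 CPM in shoot apex, E3N88_39421 had the largest fold of shoot apex over stem. It was at 10.5, 5.23 and 4.26 CPM in shoot apex and at 0, 0.601 and 1.23 in stem (log2 fold change 2.93 ± 0.83, SE, edgeR adjusted p = 0.00781), with 154, 307 and 235 in leaf.

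In stem the called members were E3N88_15250 and E3N88_19447. E3N88_15250 was at 85.3, 41.5 and 84.1 CPM in leaf and at 3.86, 15.03 and 4.11 in stem, with stem replicate 2 well above the others. Flower held 1.10, 0.732 and 0.864 CPM and shoot apex 1.18, 1.33 and 0.544, and neither overlapped stem. The log2 fold change was -3.41 ± 0.71 for flower over stem and -3.29 ± 0.69 for shoot apex over stem (SE, edgeR adjusted p of 0.00132 and 0.00118), and -2.41 and -2.29 without stem replicate 2. For E3N88_19447, whose values are given above, stem replicate 3 overlapped the flower range. Its log2 fold change of flower over stem was -1.41 ± 0.53 (SE, edgeR adjusted p = 0.036), and over the alternatives the smallest log2 fold change of stem over the other organs was 1.05 to 1.78, with an adjusted p of 0.00435 to 0.19. Its call as highest in stem was lost with DESeq2, with plain library totals, and without flower replicate 1, 2 or 3 or stem replicate 1 or 2.

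The leaf libraries themselves differed in the members. Members highest in leaf replicate 1 numbered 58, against 23 for replicate 2 and 21 for replicate 3, and replicate 2 was the lowest in 64. Of the 18028 IDs with a leaf mean of at least 5 CPM, 36.2% were highest in replicate 1 and 49.7% in replicate 2, against 56.9% and 22.5% of the members. The order of replicate 1 above 3 above 2 was shown by 50 members, 49.0%, against 29.5% of those IDs. Replicate 1 was at least 2 times replicate 2 in 36 members, 35.3%, against 8.02% of those IDs, and the reverse held in 11 members, 10.8%, against 20.5%. The median log2 ratio of leaf replicate 1 to replicate 2 was 0.63 in the members and -0.17 in those IDs. TMM scaling (the trimmed mean of M-values) moved these medians to 0.85 and 0.05, so the members lay above the other IDs on both scales. The coefficient of variation between the 3 leaf libraries had a median of 33.6% in the members and 23.3% in all IDs of at least 5 CPM. In the other organs the same rule's sets had medians of 18.95% in flower, 11.2% in shoot apex, 29.3% in stem and 35.4% in root. The leaf value was thus not the highest, but no value over all IDs stands beside those of the other organs. The rule chose the members by the mean of the 3 leaf libraries, while the other IDs were not chosen for a leaf excess. A mean can be lifted by 1 high library, so the differences from the other IDs are a description. Libraries of 1 organ are single samples, so these differences carry no test.

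**Figure D4:**
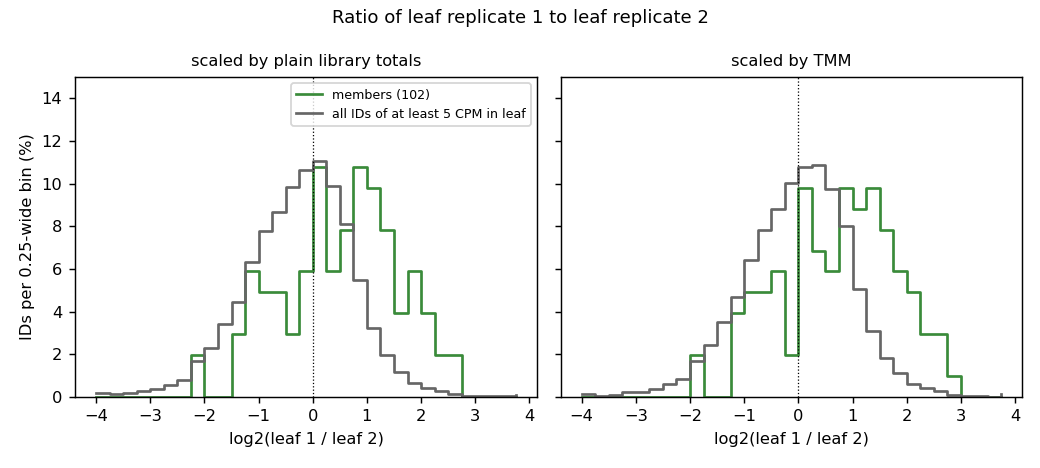
Distribution of log2 of leaf replicate 1 over leaf replicate 2 for the 102 members (green) and for all 18028 IDs with a leaf mean of at least 5 CPM (grey), as the percent of IDs in each bin of 0.25, with CPM of plain library totals (left) and TMM scaling (right). The members have a median of 0.63 on the left and 0.85 on the right, against -0.17 and 0.05 for all IDs.

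The members varied in how far they followed this pattern. E3N88_34758 had the largest share of its leaf CPM in 1 library, at 12.7, 1.92 and 5.66 CPM in replicates 1, 2 and 3. It was followed by E3N88_02768, at 21.5, 6.999 and 6.26 CPM. E3N88_39421 ran the other way, with its highest leaf level in replicate 2. At the even end, E3N88_01819, chosen after its values were seen, was at 80.2, 79.2 and 80.2 CPM, a coefficient of variation of 0.776%.

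Members that were higher in leaf replicate 1 were also read more in one stem library. Of the 72 members higher in leaf replicate 1 than in replicate 2, 69 had a stem read, and 59 of these, 85.5%, were highest in stem replicate 3. Of the 30 members higher in leaf replicate 2, 27 had a stem read and 14, 51.9%, were highest there. The median level of the 72 was 1.44 CPM in stem replicate 3, against 0.184 and 0.376 CPM in stem replicates 1 and 2, and that of the 30 was 0.566 CPM, against 0.184 and 0.301 CPM. Over all members of at least 1 CPM in stem, 29 of 37 were highest in stem replicate 3, 78.4%, against 63.6% of all IDs of at least 1 CPM in stem. With TMM scaling these shares were 73.0% and 44.5%. This comparison of libraries was made after the data were seen and carries no test. Deviations from the organ mean, over the 27055 genes tested in all 15 libraries, correlated at 0.162 between leaf replicate 1 and stem replicate 3. Between leaf replicate 2 and stem replicate 3 the correlation was -0.175. Deviations within an organ are tied to each other, so these values are not independent. Stem replicate 3 also correlated at 0.235 with flower replicate 1, and 14 of 60 pairs of different number were over 0.1. The correlation over all genes thus does not single out leaf replicate 1 and stem replicate 3. Whether the members shared it more than other genes was not tested.

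Shoot apex replicate 1 also stood out, with a smaller split by leaf replicate. Of the members with a shoot apex read, 69 were higher in leaf replicate 1 than in replicate 2. Of these, 60.9% were highest in shoot apex replicate 1, against 51.7% of the 29 higher in leaf replicate 2. Of the 48 members with at least 1 CPM in shoot apex, 30 were highest in replicate 1, 62.5%, against 41.2% of all IDs at that level. The members' summed level there was 299.7 CPM, against 178 and 168 CPM in shoot apex replicates 2 and 3. Over the 27055 genes tested in all 15 libraries, deviations from the organ mean in shoot apex replicate 1 correlated at 0.168 with leaf replicate 1. With leaf replicate 2 the correlation was -0.246, and leaf replicate 2 correlated at 0.223 with shoot apex replicate 2. Leaf and shoot apex thus varied together by replicate number for replicates 1 and 2. Whether the members shared this more than other genes was not tested. In flower and root the members followed the other IDs more closely. Flower replicate 1 was the highest flower library of 56.4% of members of at least 1 CPM and 52.3% of all such IDs, and root replicate 1 was the highest root library of 45.0% and 49.3%.

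**Figure D5:**
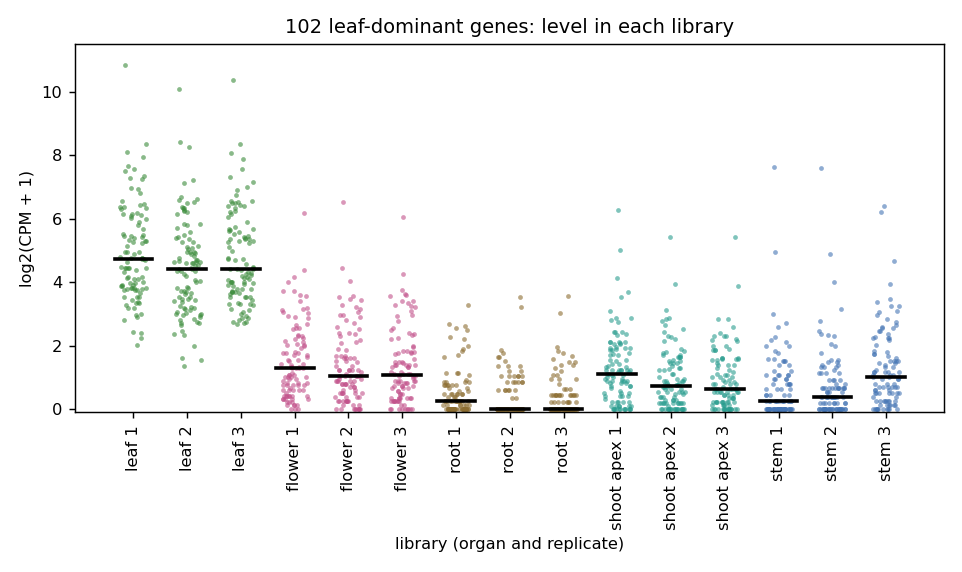
Level of each of the 102 members in every library, as log2(CPM + 1), with 1 point per member and the median as a black bar. The stem medians are 0.184, 0.301 and 1.03 CPM in replicates 1, 2 and 3, and the shoot apex medians are 1.18, 0.663 and 0.544 CPM.

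The strongest case of a member read in stem replicate 3 was E3N88_08199. It was at 325, 139 and 268 CPM in leaf replicates 1, 2 and 3, and at 0.184, 0.751 and 72.6 CPM in stem replicates 1, 2 and 3. E3N88_08201 was at 38.5, 13.2 and 33.4 CPM in leaf and at 0, 0 and 9.98 CPM in stem. E3N88_08202, the next number and no member, was at 325, 113 and 229 CPM in leaf and at 0.184, 0 and 118 CPM in stem, which put its leaf mean at 5.65 times its stem mean. These 3 IDs shared the order of the leaf libraries and the excess in stem replicate 3, and were named after their values were seen. Without stem replicate 3, 100 of the 102 members still met the rule.

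The numbers of the locus tags were not used by the rule. Tags are usually numbered along the assembled sequence, but the table gives no positions, and the handling of reads that match near-identical copies is not given in the sources used here. Levels of adjacent IDs are therefore uncertain where they are copies of each other. Adjacent in number to another member were 8 members, 7.84% of the set, in 3 runs. Members made up 0.246% of all IDs, a share per ID, while a member counts as adjacent if either of its neighbours is a member. With gaps of up to 10 in number, 22 members, 21.6%, lay in 10 runs, a count that has no matching share over all IDs. Of the 192 IDs numbered directly before or after a member that were no members, 120 had at least 1 CPM in some organ. Leaf was the highest organ of 36 of these 120, 30.0%, against 16.0% of all 27665 IDs at that level. Leaf was at least 2 times each other organ in 21 of them, 17.5%, against 5.03% of those IDs.

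The longest runs held 3 members each. In the first, E3N88_05953 was at 42.8, 11.8 and 20.6 CPM in leaf replicates 1, 2 and 3, and at 0.735, 0.751 and 4.94 CPM in stem. E3N88_05954 was at 29.6, 7.75 and 14.99 CPM in leaf, in the same order. E3N88_05955, the last of the run, was nearly even at 24.1, 24.1 and 19.96 CPM. The run thus did not share 1 replicate pattern. In the second, E3N88_30812 was at 6.79, 4.17 and 7.84 CPM in leaf, E3N88_30813 at 77.2, 54.7 and 70.4 CPM and E3N88_30814 at 121, 55.9 and 85.2 CPM. Flower was the highest organ outside leaf for all 3 of them. The pair of E3N88_11019 and E3N88_11020 differed in root, at 4.59, 10.6 and 10.8 CPM in the first and 1.10, 0 and 1.10 CPM in the second, while E3N88_11020 was at 69.7, 41.1 and 49.5 CPM in leaf.

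The member with the most leaf reads also had a leaf-high neighbour. E3N88_19446, numbered directly before E3N88_19447 and named after its values were seen, was at 2152, 1087 and 1522 CPM in leaf. It was at 93.5, 108 and 84.7 CPM in flower, 153, 71.4 and 71.8 in shoot apex, 285, 333 and 279 in stem and 95.3, 48.4 and 43.9 in root. Its leaf mean was 5.31 times its stem mean, under the limit of the rule. The 2 IDs shared the order of the leaf libraries, and they differed in root, where E3N88_19446 was read in each library and E3N88_19447 averaged 1.92 ± 3.01 CPM (SD, n = 3).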

How the data were processed

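The deposited file holds whole-number read counts, not normalized by the authors, for 41487 locus tags in 15 libraries. The aligner was HISAT2 according to the submitters' processing notes. For the counting program, genome build, annotation and strand handling, details were not given in the sources used here. Members and levels used CPM of the plain library totals, as in the rule, given as mean ± SD where averaged. Tests used edgeR 4.0.16 in R 4.3.3: filterByExpr on organs, TMM scaling, glmQLFit and glmQLFTest with 1 term per organ, and Benjamini-Hochberg adjustment over all genes tested within each contrast. Contrasts among flower, root, shoot apex and stem were fitted to their 12 libraries, and those with leaf to all 15. DESeq2 1.42.0 was an alternative. Folds over an organ with no read are lower bounds over 3 counts in its 3 libraries. With 1 to 3 reads, ratios of summed reads, scaled by the summed library totals, carry exact (Clopper-Pearson) 95% intervals. The edgeR fit was also run on simulated counts with random genes raised in stem, read only for root against stem. No gene was set to lack reads in root there, so that run does not cover members without a root read.

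The members, lists and rules were chosen with earlier results of these data known. IDs were named by rule: the 2 highest leaf means and 2 largest ratios, the largest fold in each direction of each pair with at least 5 CPM, the highest mean among members called highest in an organ, the IDs nearest the limit, the 2 largest shares in 1 leaf library, and the ends of the longest runs. The lists of named pathways could not be matched to locus tags. Replicate numbers were not used to pair the samples in the main fits.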

Additional observations from a re-analysis of the deposited data

How the results depend on the processing

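The set depended on the limits of its rule, with 318 IDs at a fold of 4 and 29 at a fold of 16. TMM factors gave 120 IDs, all 102 members among them, a leaf minimum of 2 CPM gave 131, one of 10 CPM gave 85, and medians in place of means 110. Leaving out 1 library gave 88 to 115. Counts of called members in the pairs, the overall F test and the organ-highest calls stayed within 1.5 times under DESeq2, RLE factors, plain library totals, no filter, the replicate block and leaving out any 1 library. With all 15 libraries, which admit all 102 members to the test, shoot apex and stem had 32 called members and 17 were called highest in 1 organ, against 21 and 11 of the 67 tested without leaf. Leaving out 1 library gave 38 to 47 called members for flower and root, 17 to 27 for flower and shoot apex, 21 to 36 for flower and stem, 27 to 36 for root and shoot apex, 29 to 34 for root and stem, 20 to 26 for shoot apex and stem, 53 to 60 in the F test and 8 to 15 called highest in 1 organ. With plain library totals the median change over all genes tested was 0.62 (log2) for flower over root and -0.66 for root over shoot apex. With TMM these were 0.23 and -0.21. The called members were under plain totals higher in flower in 41 of 41 and in shoot apex in 36 of 38. Of all genes called under that scaling, 73.2% were higher in flower than in root. Between root and shoot apex, 30.3% were higher in root, so all genes shifted the same way. Without E3N88_19447 the members' share of counts was 0.428% in leaf, 0.0262% in flower and 0.0174% in stem. Gaps of up to 5 and 10 in number put 14 and 22 members in runs. Members highest in leaf replicate 1 numbered 63 with TMM, an alternative chosen after seeing the data.

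The labels give replicate numbers 1 to 3 in every organ. Deviations of same-numbered libraries from their organ means had correlations of -0.201 to 0.223 over 30 pairs, 3 of them over 0.1. For libraries of different number they were -0.246 to 0.235 over 60 pairs, 14 of them over 0.1. Over all these pairs, same-numbered libraries were thus no more alike than others. Leaf and shoot apex differed from this for replicates 1 and 2, with 0.168 and 0.223 at the same number. Leaf replicate 1 with shoot apex replicate 2 was at -0.166, and leaf replicate 2 with shoot apex replicate 1 at -0.246. Replicate 3 of leaf and shoot apex was at -0.0732, and leaf replicate 2 with shoot apex replicate 3 at 0.117. The remaining same-numbered pair over 0.1 was leaf and stem replicate 2, at 0.168. Whether same-numbered libraries share plants or batches was not tested. With the replicate block 39 members were called for flower and root, 28 for root and stem, 20 for shoot apex and stem and 50 in the F test. Root replicate 2 limits what can be seen in root, where 3 counts over the 3 libraries are 0.156 CPM.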
